A study of Mus musculus with 13 samples.

Results

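The genes described here are 10 genes that mark macrophages of the intestine: Csf1r, C1qa, C1qb, C1qc, Cd68, Tyrobp, Aif1, Lyz2, Fcer1g and Cd14. They were taken by symbol from the 12393 genes measured on 13 Affymetrix arrays of mouse duodenum, the part of the small intestine next to the stomach, and all 10 were present. Where a gene had several probe sets, the one with the brightest mean signal was used. Mice were either wild type, labelled CO, or K-Ras mutants, labelled ViRas, on a mixed strain background. Both genotypes were placed on their diets after 5 weeks of age and killed after 22 weeks of diet. Normal diet (ND) has 2 wild-type and 3 mutant arrays and high-fat diet (HFD) has 2 and 2. HFD with butyrate, a product of bacterial fermentation in the gut, has 1 wild-type and 3 mutant arrays. The labels give neither the allele nor the promoter that drives it. In the published mouse model, as background, oncogenic K-Ras is switched on by a recombinase under the villin promoter, which is active in the epithelium of the gut.

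Macrophages of the small intestine lie under the epithelium, where they clear dying cells and microbes. Most are renewed from blood monocytes and depend on the receptor Csf1r and its ligands. They secrete the 3 chains of C1q, the recognition part of the classical complement pathway, and carry receptors that signal through the adaptors Tyrobp and Fcer1g. Several of the 10 genes are also active elsewhere: Tyrobp and Fcer1g in natural killer cells, neutrophils and mast cells, and Lyz2 in neutrophils. RNA came from whole tissue, so fewer macrophages and less RNA per macrophage cannot be told apart in any of the differences below.

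Values are the authors' RMA levels on a log2 scale, on which 1 unit is a 2-fold difference, and array medians ranged from 6.04 to 6.14. Epithelial genes were bright on all 13 arrays, with Epcam between 12.30 and 12.66 and Fabp1 between 13.53 and 13.78. The mean of 21 genes of the exocrine pancreas, which lies against the duodenum, ranged from 6.61 to 12.7 over the 13 arrays, and from 7.06 to 12.7 within the mutant ND group alone. The numbers in the array names form a separate run for each diet, so a diet cannot be told apart from an array series, whereas genotypes were compared within a series. Precision is limited by the small number of arrays.

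RefSeq promoters of the GRCm38.p6 build were at hand for 6 of the 10 genes. They are shown as sequence only, and any link between them and the levels on the arrays was not tested. The letters GAGGAA, or TTCCTC on the other strand, are the core of sites bound by PU.1, the myeloid transcription factor encoded by Spi1. They occur in 4 of the 6 promoter windows, which run from 250 bases before to 50 bases after the start. Of all 32851 windows 28.3% hold them, and of the 9887 genes on the array with a window 31.0%. The longer form GAGGAAGT, which contains the first, occurs in C1qc, against 3.20% of all windows. The lines below give the 250 bases before each start with these letters in capitals. In order they lie at chr4:136886201-136886450, chr4:136892915-136893164, chr11:69666171-69666420, chr17:35176053-35176302 and chr10:117282273-117282522, all on the minus strand and written in the direction of the gene. The Lyz2 sequence has no match and is shown because that gene had the largest difference of the 10.
C1qb: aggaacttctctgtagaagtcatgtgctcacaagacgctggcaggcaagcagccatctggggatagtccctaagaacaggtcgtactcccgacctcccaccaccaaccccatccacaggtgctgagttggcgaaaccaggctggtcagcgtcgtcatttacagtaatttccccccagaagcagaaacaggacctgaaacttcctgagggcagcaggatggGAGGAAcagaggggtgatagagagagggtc
C1qc: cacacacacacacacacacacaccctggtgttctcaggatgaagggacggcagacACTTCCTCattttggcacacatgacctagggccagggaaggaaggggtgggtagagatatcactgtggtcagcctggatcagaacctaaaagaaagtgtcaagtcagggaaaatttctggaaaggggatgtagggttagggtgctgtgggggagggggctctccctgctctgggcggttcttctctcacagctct
Cd68: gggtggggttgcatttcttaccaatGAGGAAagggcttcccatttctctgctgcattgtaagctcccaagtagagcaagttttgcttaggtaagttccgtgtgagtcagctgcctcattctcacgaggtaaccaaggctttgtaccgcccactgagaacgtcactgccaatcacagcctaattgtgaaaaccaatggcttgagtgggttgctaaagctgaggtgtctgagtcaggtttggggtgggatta
Aif1: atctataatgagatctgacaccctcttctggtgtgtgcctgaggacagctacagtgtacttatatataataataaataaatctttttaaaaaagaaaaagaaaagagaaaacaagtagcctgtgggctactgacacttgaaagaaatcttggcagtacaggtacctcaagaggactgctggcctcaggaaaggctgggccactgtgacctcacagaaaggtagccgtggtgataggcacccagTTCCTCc
Lyz2: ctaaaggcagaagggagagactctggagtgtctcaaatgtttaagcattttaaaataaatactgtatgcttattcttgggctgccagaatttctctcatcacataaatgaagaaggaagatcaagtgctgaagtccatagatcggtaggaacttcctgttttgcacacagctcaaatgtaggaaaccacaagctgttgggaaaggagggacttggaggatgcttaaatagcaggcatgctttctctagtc

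The match begins 30 bases before the start in C1qb, 193 before it in C1qc, 225 before it in Cd68 and 7 before it in Aif1. Cd68 has a further match after its start, and the Fcer1g window has none. A match of letters is a description of the sequence and not a measured binding site. C1qb, C1qc and C1qa are neighbours on chromosome 4, with no other protein-coding gene between them in the RefSeq table. The other neighbours of note are Hcst beside Tyrobp on chromosome 7 and Lyz1 beside Lyz2 on chromosome 10.

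Mutant duodenum had lower levels of 9 of the 10 macrophage genes on both the normal and the high-fat diet, by about 2-fold for most. Lyz2, a lysozyme, differed most, at 2.97-fold, and Cd14, the co-receptor for bacterial lipopolysaccharide, was the exception. In a limma fit of the 9 arrays without butyrate, with diet as a term, 9 of the 10 genes fell in mutants at an adjusted p under 0.05. Of all 12393 genes 2.39% were called lower in that fit, 2.24% higher and 4.63% in either direction. The median difference of the 10 genes was -0.96, against 0.012 for all genes. In these 9 genes, with the probe sets used, all 5 mutant arrays lay below all 4 wild-type arrays, which held for 2.30% of all genes. In both other C1qb probe sets and in a further Csf1r probe set the genotypes overlapped between diets, though not within ND or within HFD. The 10 genes share their arrays and their cells, so they are not 10 separate observations.

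**Figure D1:**
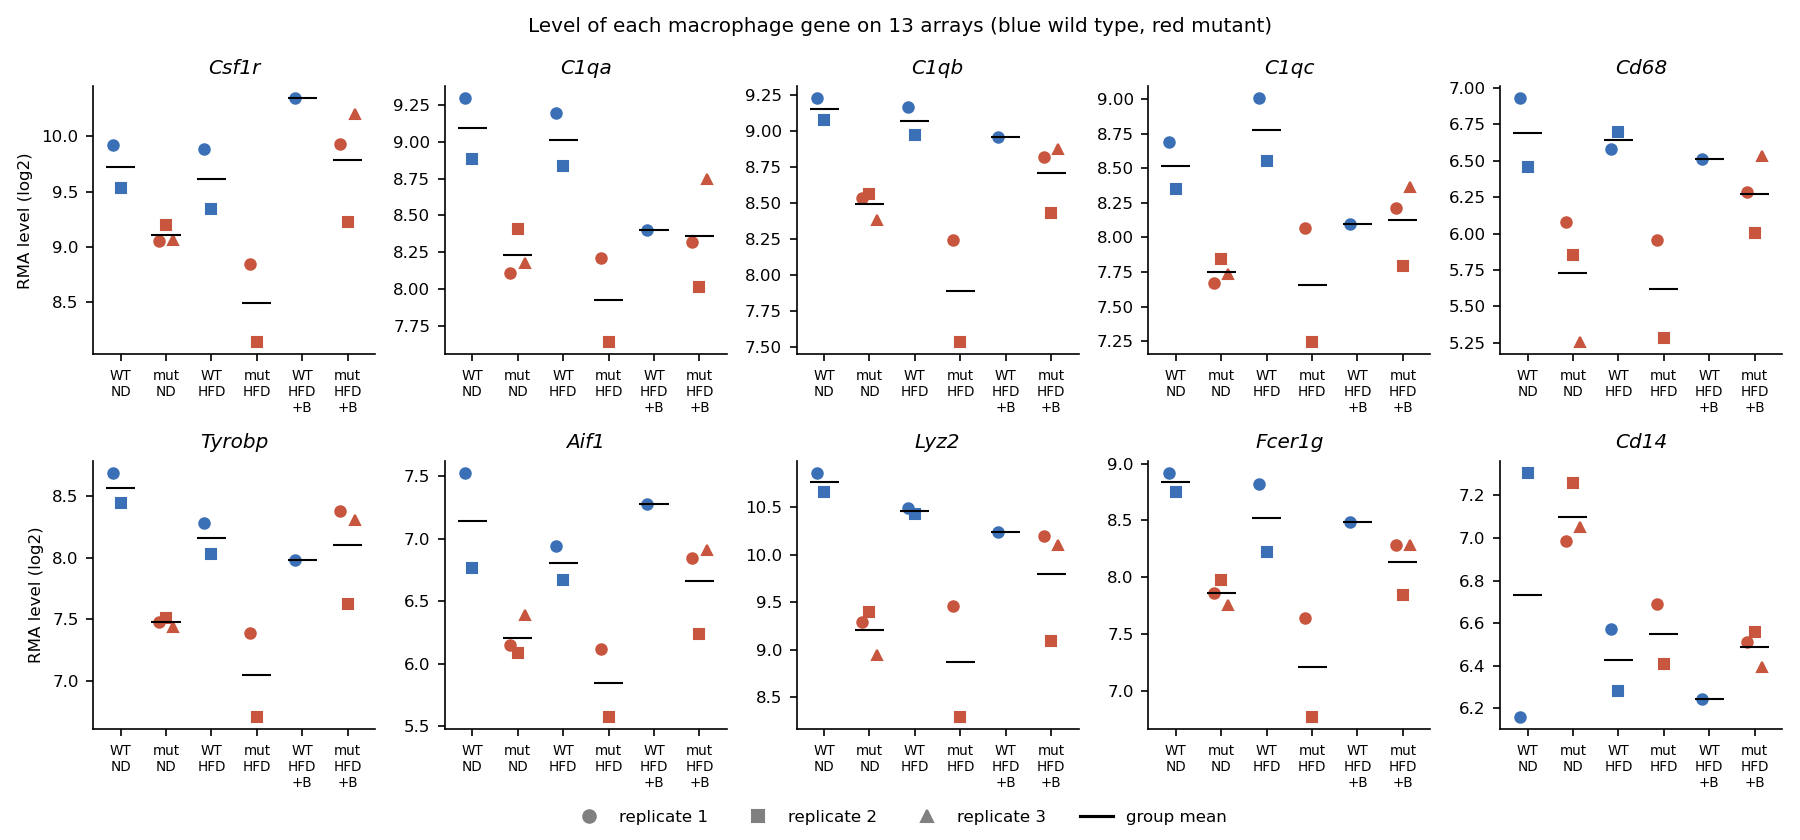
RMA level (log2, vertical axis) of each of the 10 genes on each array, by genotype and diet, with circles, squares and triangles for array 1, 2 and 3 of a group, lines for group means and a separate scale in each panel. In all panels but Cd14 the mutant ND and HFD arrays lie below the wild-type ones, and mutant HFD array 2 has the lowest value in every panel but Cd68 and Cd14.

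Csf1r is the receptor through which colony-stimulating factor 1 and interleukin 34 keep macrophages alive. On ND it read 9.92 and 9.53 in wild type and 9.05, 9.19 and 9.06 in mutants. On HFD it read 9.88 and 9.34 in wild type and 8.84 and 8.13 in mutants. With butyrate it read 10.35 on the wild-type array and 9.93, 9.22 and 10.20 on the mutant arrays. With this probe set the genotypes did not overlap within any diet, but mutant arrays with butyrate reached above the wild-type arrays of the other diets. Over the 9 arrays without butyrate Csf1r fell by 0.85 ± 0.18 (SE) with adjusted p = 0.0253, a call that was lost without wild-type ND array 1, wild-type HFD array 1 or mutant ND array 1 or 3 (adjusted p up to 0.0614). Its 2 other probe sets differed by -0.95 and -0.71 on ND and by -1.03 and -0.72 on HFD, the same direction as the probe set used (-0.62 and -1.12). With butyrate the genotypes overlapped in both other probe sets, with 8.12 in wild type against 8.40, 7.45 and 8.48 in the one and 8.07 against 7.77, 7.41 and 8.13 in the other.

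The ligands of Csf1r did not show this difference in the same fit. Csf1 differed by -0.050 ± 0.11 and Il34 by -0.051 ± 0.11, and each changed sign when some arrays were left out. Of 13 measured genes for Csf1r ligands and monocyte recruitment, 2 fell and 0 rose: Ccr1, a chemokine receptor of monocytes (-0.60), and Tgfb1, a growth factor that shapes gut macrophages (-0.57). Of all genes 2.39% were called lower. Cx3cl1, a chemokine of the gut that binds Cx3cr1 on macrophages, differed by 0.23 ± 0.081 (adjusted p = 0.143).

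C1qa, C1qb and C1qc encode the A, B and C chains of C1q, which are assembled in equal amounts. C1qa read 9.30 and 8.88 on the wild-type ND arrays and 8.11, 8.40 and 8.18 on the mutant ones. On HFD the values were 9.20 and 8.83 in wild type against 8.21 and 7.64 in mutants, and with butyrate 8.40 against 8.32, 8.01 and 8.75. The genotypes were apart on ND and HFD and overlapped with butyrate.

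C1qb read 9.23 and 9.08 on ND in wild type and 8.54, 8.56 and 8.39 in mutants. On HFD it read 9.17 and 8.98 against 8.25 and 7.54, and with butyrate 8.96 against 8.82, 8.43 and 8.88. For this C1qb probe set all 8 mutant arrays lay below all 5 wild-type arrays over the 3 diets. With the probe sets used, only 2 of the 10 genes did so, C1qb and Lyz2, against 0.113% of all genes. The other C1qb probe sets gave mutant minus wild-type differences of -0.90 and -0.87 on ND and -0.92 and -1.33 on HFD. In both of them the genotypes overlapped over the 3 diets. Mutant arrays reached up to 7.26 and 6.73, and wild-type arrays down to 6.67 and 6.18.

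C1qc read 8.69 and 8.35 against 7.67, 7.84 and 7.73 on ND, and 9.01 and 8.55 against 8.06 and 7.24 on HFD, wild type first. With butyrate it read 8.10 in wild type and 8.22, 7.80 and 8.36 in mutants. The wild-type array with butyrate thus had less C1qa and C1qc than any of the 4 other wild-type arrays. Over the 9 arrays without butyrate the chains fell by similar amounts: C1qa by 0.96 ± 0.14 (adjusted p = 0.00689), C1qb by 0.90 ± 0.15 (0.0118) and C1qc by 0.93 ± 0.17 (0.0161).

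Other complement genes did not pass. Of 21 measured complement genes beyond C1q, 0 fell and 0 rose in the 9 arrays, with a median difference of -0.14. Of all genes 2.39% were called lower and 2.24% higher. C1ra and C1s1, the proteases that C1q activates, differed by -0.22 ± 0.19 and -0.14 ± 0.13. Among those with negative estimates were C3ar1, the receptor for the fragment C3a (-0.46, adjusted p = 0.0584), and Cfp, properdin, which leukocytes secrete (-0.63, adjusted p = 0.0810). The largest estimate of the list ran the other way, 1.08 for Cfi, the protease factor I that inactivates C3b and C4b (adjusted p = 0.189), a gene named after its values were seen.

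Tyrobp and Fcer1g are small membrane adaptors whose ITAM motifs pass signals from activating receptors to the kinase Syk. Tyrobp read 8.69 and 8.44 on the wild-type ND arrays and 7.48, 7.51 and 7.44 on the mutant ones. On HFD it read 8.29 and 8.03 against 7.39 and 6.71, and with butyrate 7.99 against 8.38, 7.62 and 8.31. It fell by 1.1 ± 0.13 over the 9 arrays, with the lowest adjusted p of the 10 genes (0.00293). The 3 mutant ND arrays lay within 0.1 of each other, whereas with butyrate 2 of 3 mutant arrays lay above the wild-type one.

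Fcer1g read 8.92 and 8.75 in wild type against 7.86, 7.97 and 7.75 in mutants on ND. The values on HFD were 8.82 and 8.22 against 7.64 and 6.77, and with butyrate 8.48 against 8.28, 7.84 and 8.29. Fcer1g fell by 1.13 ± 0.18 over the 9 arrays (adjusted p = 0.00967). No mutant array of any diet reached the wild-type array of its own diet.

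Receptors that use these adaptors changed unevenly. Of 20 measured partners and kinases, 4 fell and 0 rose, with a list median of -0.14, where 2.39% of all genes were called lower. The 4 were the Fc receptors for antibody Fcgr1 (-0.67 ± 0.10), Fcgr3 (-0.65 ± 0.16) and Fcgr4 (-1.05 ± 0.24) and the scaffold Lcp2 (-0.67 ± 0.11). Syk differed by -0.37 ± 0.19, Trem2, a Tyrobp-coupled lipid receptor, by -0.12 ± 0.11, and Hcst, the adaptor beside Tyrobp, by -0.28 ± 0.16, none of which passed. With 1 array left out these ranged from -0.62 to -0.16 for Syk, from -0.18 to -0.023 for Trem2 and from -0.40 to -0.091 for Hcst. Fcer1a, the antibody-binding chain of the mast cell receptor that also contains Fcer1g, differed by -0.020 ± 0.23, and of 13 markers of mast cells, basophils and eosinophils 1 fell, Kit.

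Aif1, also known as Iba1, binds calcium and actin in macrophages and marks them in tissue stains. Its levels on ND were 7.53 and 6.76 in wild type and 6.15, 6.08 and 6.39 in mutants. On HFD they were 6.94 and 6.67 against 6.12 and 5.57, and with butyrate 7.28 against 6.84, 6.23 and 6.91. The genotypes did not overlap within any diet. The wild-type ND arrays differed from each other by more than wild-type array 2 did from the highest mutant ND array. Aif1 fell by 0.95 ± 0.17 over the 9 arrays (adjusted p = 0.0144).

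Cd68 encodes a glycoprotein of the lysosomes of macrophages. It read 6.93 and 6.46 against 6.08, 5.85 and 5.25 on ND, wild type first, and 6.58 and 6.70 against 5.96 and 5.29 on HFD. With butyrate it read 6.51 in wild type and 6.29, 6.005 and 6.53 in mutants. Cd68 fell by 0.99 ± 0.19 over the 9 arrays (adjusted p = 0.0199), and the call was lost without wild-type ND array 1, wild-type HFD array 1 or 2 or mutant HFD array 2 (adjusted p up to 0.0561).

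Lysosomal genes that most cells use did not follow Cd68. Of 23 measured, 0 fell and 2 rose, the lipase Lipa (0.69 ± 0.16) and the protease Ctsh (0.38 ± 0.072). Of all genes 2.39% were called lower and 2.24% higher. The membrane proteins Lamp1 and Lamp2 differed by 0.13 ± 0.097 and 0.13 ± 0.090, and Lamp2 had the other sign with the mean of its probe sets (-0.054). Ctss, a cathepsin of antigen-presenting cells, differed by -0.29 ± 0.078 (adjusted p = 0.0649).

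Lyz2 encodes the lysozyme of macrophages and other myeloid cells. It read 10.86 and 10.66 on the wild-type ND arrays and 9.29, 9.40 and 8.94 on the mutant ones. On HFD it read 10.50 and 10.43 against 9.46 and 8.29, and with butyrate 10.24 against 10.20, 9.09 and 10.10. It fell by 1.57 ± 0.20 over the 9 arrays (2.97-fold, adjusted p = 0.00342), and 18 of the 12393 genes had a lower estimate. With butyrate, mutant arrays 1 and 3 came within 0.2 of the wild-type array while mutant array 2 stayed near the mutant ND arrays.

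Lyz1, the adjacent and near-identical lysozyme gene, is made by Paneth cells of the crypts. Its brightest probe set fell by 1.29 ± 0.27 over the 9 arrays (adjusted p = 0.0262), and its 3 probe sets differed by -1.15 to -1.49 on ND and by -0.91 to -1.89 on HFD. The dimmest of the 3 had a mean level of 4.74, against 12.76 and 12.43 for the others. How much of the Lyz2 signal comes from Lyz1 transcripts, or the reverse, was not tested, so the sizes of both differences are uncertain. Of 13 listed Paneth cell markers, Lyz1 included, 7 were measured. Nupr1, one of them, went opposite ways, by 1.24 on ND and -2.98 on HFD. Over the 9 arrays 5 of the 7 fell and 0 rose, with a median of -1.80, where 2.39% of all genes were called lower. Among those that fell were Mptx1 (-3.13 ± 0.43), Mmp7 (-2.53 ± 0.28), Itln1 (-2.48 ± 0.36) and Pla2g2a (-1.80 ± 0.28).

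Cd14 binds bacterial lipopolysaccharide and hands it to the receptor Tlr4. It read 6.16 and 7.31 on the wild-type ND arrays and 6.99, 7.26 and 7.05 on the mutant ones. On HFD it read 6.57 and 6.28 against 6.69 and 6.41, and with butyrate 6.24 against 6.51, 6.56 and 6.39. The wild-type ND arrays held both the lowest and the highest value of all 13. Over the 9 arrays Cd14 differed by 0.25 ± 0.20 (95% interval -0.24 to 0.75, adjusted p = 0.580), an interval that excludes the fall seen in each of the other 9 genes. Without wild-type ND array 2 the ND difference was 0.94 (adjusted p = 0.0439), and without array 1 it was -0.21 (adjusted p = 0.766).

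The partners of Cd14 in lipopolysaccharide sensing did not pass either. Tlr4 differed by -0.087 ± 0.11, its co-receptor Ly96 by 0.24 ± 0.15 and the serum carrier Lbp by -0.23 ± 0.15. Of 22 measured genes of the Cd14 and Tlr4 pathway 1 fell, Tlr1, a receptor for bacterial lipopeptides (-0.69 ± 0.16), and the median was -0.067. Of all genes 2.39% were called lower.

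**Figure D2:**
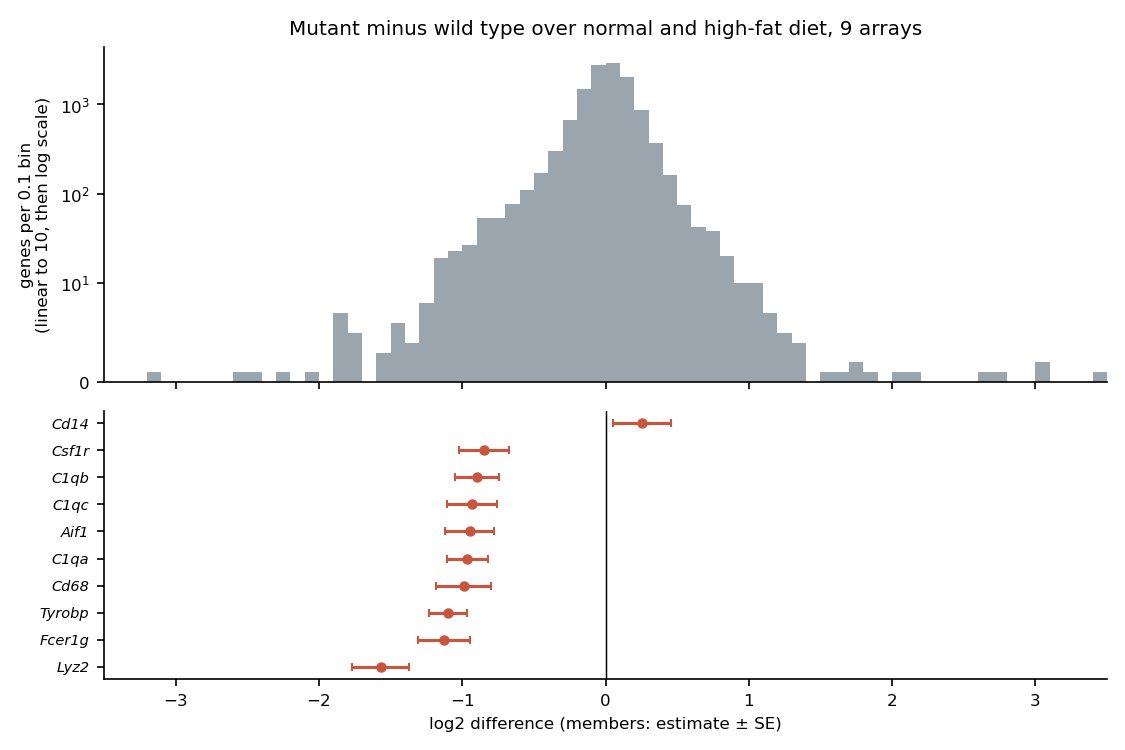
Top, histogram of the log2 difference between mutants and wild type over the 9 ND and HFD arrays for all 12393 genes, with a vertical scale that is linear to 10 genes and logarithmic above. Bottom, estimates of the 10 genes on the same horizontal axis with standard errors, where Lyz2 lies farthest to the left (-1.57), 8 genes lie between -1.13 and -0.85, and Cd14 lies at 0.25.

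Within single diets the same 9 genes were lower in mutants, with fewer arrays behind each value. On ND 0 of the 10 genes and 0.0242% of all genes passed at adjusted p under 0.05. The differences ranged from -1.55 to 0.37 with a median of -0.90, and 8 of the 10 had an unadjusted p under 0.05, as did 1575 of the 12393 genes. On HFD 0 of the 10 and 0.0403% of all genes passed, the median was -1.12, and 9 of the 10 and 1406 of all genes had an unadjusted p under 0.05. The largest were Lyz2 on ND (-1.55 ± 0.35, adjusted p = 0.142) and on HFD (-1.59 ± 0.38, adjusted p = 0.189). In each of these diets 9 of the 10 genes had every mutant array below every wild-type array, which 12.4% of all genes did on ND and 20.2% on HFD.

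The size of the genotype difference did not differ detectably between ND and HFD. Of the 10 genes 0 passed the test of that difference, as did 0.00807% of all genes, with a median of -0.24 and a range from -0.52 to -0.018. C1qb, for which the estimates were -0.66 ± 0.19 on ND and -1.18 ± 0.21 on HFD, had its lowest value on mutant HFD array 2 (7.54). That array was below mutant HFD array 1 in all 10 genes, against 53.1% of all genes. The other C1qb probe sets differed by -0.90 on ND and -0.92 on HFD, and by -0.87 on ND and -1.33 on HFD.

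With butyrate the genotypes lay closer together, and the 1 wild-type array sets the precision. The difference was between -0.61 (Aif1) and 0.24 (Cd14), with a median of -0.24, and 0 of the 10 genes and 0 of the 12393 genes passed. At an unadjusted p under 0.05 the numbers were 0 and 749. C1qa differed by -0.041 (95% interval -0.74 to 0.66), C1qc by 0.027 (-0.70 to 0.75) and Tyrobp by 0.12 (-0.59 to 0.82). Csf1r differed by -0.56 (-1.41 to 0.29) and Lyz2 by -0.45 (-1.50 to 0.60). All 3 mutant arrays lay below the wild-type array in 5 of the 10 genes (Csf1r, C1qb, Aif1, Lyz2 and Fcer1g), against 28.0% of all genes, and above it for Cd14. For Csf1r this held for the probe set used and not for its 2 others, which differed by -0.010 and -0.30. For C1qb it failed in 1 of its other probe sets, where mutant array 1 (7.26) lay above the wild-type array (7.06). With the probe sets used, the wild-type butyrate array itself lay below both wild-type HFD arrays in 7 of the 10 genes and above both in 2. The shares of all genes were 34.6% and 45.9%. Csf1r, above both, and C1qb, below both, went the opposite way in their other probe sets. Against both wild-type ND arrays the wild-type butyrate array was lower in 6 and higher in 1, with shares of 33.3% and 37.9%. The closer genotypes thus involve levels of that 1 array as well as of the mutants.

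The change of the genotype difference with butyrate was tested directly. Relative to the mean of ND and HFD, the estimate was 1.22 ± 0.35 for Tyrobp, 0.98 ± 0.35 for C1qc, 0.93 ± 0.34 for C1qa and 1.13 ± 0.52 for Lyz2. It was smaller for Aif1 (0.33 ± 0.39) and Csf1r (0.31 ± 0.42). Of the 10 genes 0 passed after adjustment (lowest adjusted p = 0.639), 4 had an unadjusted p under 0.05, as did 877 of all genes, and 0.00807% of all genes passed. The median was 0.78 against -0.028 for all genes.

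**Figure D3:**
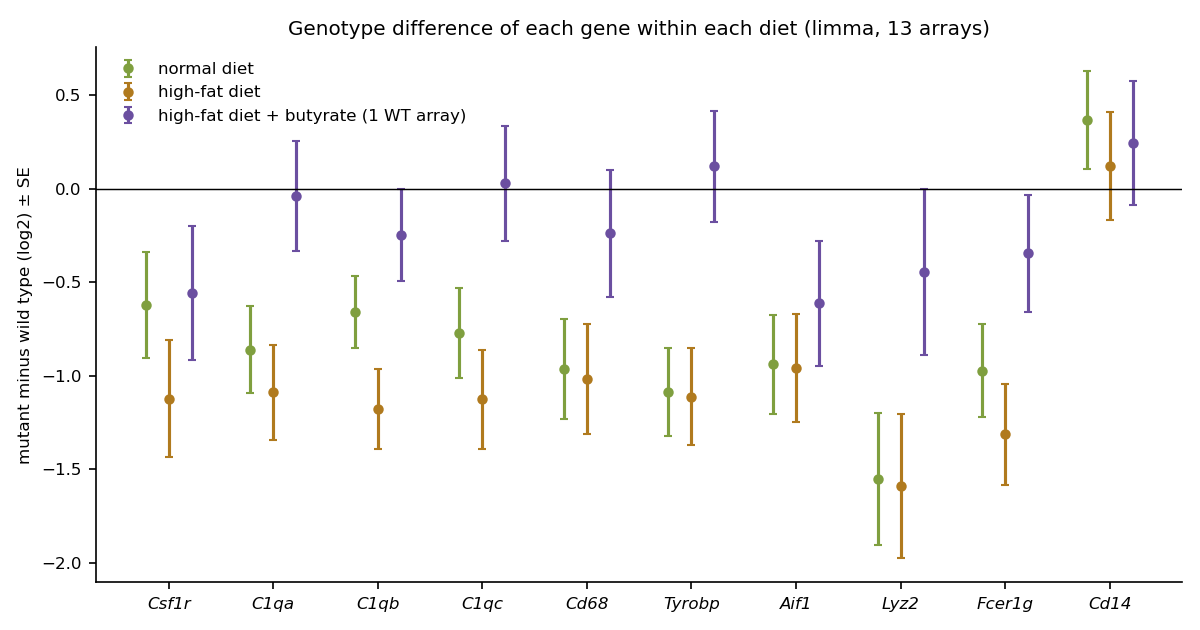
Log2 difference between mutants and wild type (vertical axis, with standard errors) for each of the 10 genes on ND (green), HFD (ochre) and HFD with butyrate (purple, 1 wild-type array). The ND and HFD estimates of 9 genes lie between -1.59 and -0.62 and the butyrate estimates between -0.61 and 0.12, while the Cd14 estimates are 0.37, 0.12 and 0.24.

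A limma fit of all 13 arrays with diet as a term pools the 3 diets. There 4 of the 10 genes fell: Aif1 (-0.86 ± 0.16, adjusted p = 0.0404), Lyz2 (-1.28 ± 0.25, 0.0412), Fcer1g (-0.93 ± 0.18, 0.0412) and C1qb (-0.73 ± 0.15, 0.0465). Of all genes 0.597% were called lower and 1.02% in either direction, and the median of the 10 was -0.78 against 0.0050. Csf1r, C1qa, C1qc, Cd68 and Tyrobp had differences of -0.69 to -0.80 with adjusted p between 0.0548 and 0.0860. The count of 4 became 0 without any 1 of the 9 ND and HFD arrays. It was 8 without the wild-type butyrate array and 7, 3 and 8 without mutant butyrate array 1, 2 and 3. With each diet weighted equally it was 0.

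The mutant arrays on HFD with butyrate had higher levels than those on HFD alone for 5 of the 10 genes. Csf1r rose by 1.30 ± 0.28 (adjusted p = 0.00833), Tyrobp by 1.06 ± 0.24 (0.00917), Fcer1g by 0.93 ± 0.25 (0.0212), C1qb by 0.82 ± 0.19 (0.0126) and Aif1 by 0.81 ± 0.26 (0.0468). This comparison called 12.9% of all genes higher, 8.78% lower and 21.7% in either direction. The estimates for Lyz2 (0.92 ± 0.35, adjusted p = 0.0853), Cd68 (0.65 ± 0.27), C1qc (0.47 ± 0.24) and C1qa (0.43 ± 0.23) did not pass. Cd14 differed by -0.060 ± 0.26, and the median of the 10 was 0.82 against 0.023 for all genes.

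Single arrays carried much of that rise. Without mutant HFD array 2, 0 of the 10 genes passed, and without mutant butyrate array 1 or 3 the count was 3. Mutant butyrate array 2 had the lowest value of its group in 9 of the 10 genes, against 36.5% of all genes, and its mean over the 10 genes was 7.68, against 7.62 to 7.81 on the mutant ND arrays. All 3 butyrate arrays lay above both mutant HFD arrays in 6 of the 10 genes, against 27.2% of all genes, and 21.8% of all genes had all 3 below. For Csf1r the rise of 1.30 came from the probe set used, while its others differed by 0.53 and 0.078, and with the mean of its probe sets it did not pass (0.64, adjusted p = 0.140). The C1qb probe sets differed by 0.82, 1.09 and 1.33. These diets lie in different array series, so the diet and the series cannot be told apart here.

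High-fat against normal diet gave no call in either genotype. In wild type 0 of the 10 genes passed, against 11% of all genes (5.42% lower and 5.62% higher), with a median of -0.21. Both wild-type HFD arrays lay below both ND arrays in 2 of the 10, against 27.9% of all genes. In mutants 0 of the 10 passed, against 17.7% of all genes (10.1% lower and 7.67% higher), with a median of -0.39. All 10 estimates were below 0 with the probe sets used. In the other 2 Csf1r probe sets the mutant mean was higher on HFD, at 7.58 against 7.47 and 7.69 against 7.29. The nearest to a call was C1qb (-0.60 ± 0.19, adjusted p = 0.0534), which passed without dim genes, with the mean of its probe sets and with array weights. The order of the 6 group means was alike in most genes. With the probe sets used, mutant HFD was lowest in 9 of the 10, and wild-type ND was highest in 6. In both other Csf1r probe sets mutant ND was lowest and wild-type HFD highest. In a further C1qb probe set wild-type HFD with butyrate was highest (7.004 against 6.95 on wild-type ND).

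Across the 13 arrays the profiles of 9 genes were alike. Each gene was scaled to mean 0 and SD 1 and set against the scaled mean of the 10. That mean contains the gene itself, so the values of the 10 are partly built in and cannot be set against those of outside genes. The root mean square difference was 0.15 for Fcer1g and C1qb, 0.23 for Lyz2 and 0.25 for Tyrobp. It was 0.37 for C1qa, 0.41 for C1qc, 0.42 for Aif1, 0.44 for Cd68 and 0.50 for Csf1r, and 1.47 for Cd14. Outside the list the nearest genes were Ms4a7, a membrane protein of macrophages (0.25), the Paneth and goblet cell lectin Itln1 (0.27), Mpeg1, a pore-forming protein of macrophages (0.32), Lyz1 (0.32) and Gm2a, a lysosomal lipid-binding protein (0.33). Over the 9 arrays Ms4a7 fell by 0.78 ± 0.11, Mpeg1 by 0.98 ± 0.13 and Gm2a by 0.76 ± 0.11. These genes were picked for their likeness on these same arrays, so a fall was built into the choice and adds no evidence.

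**Figure D4:**
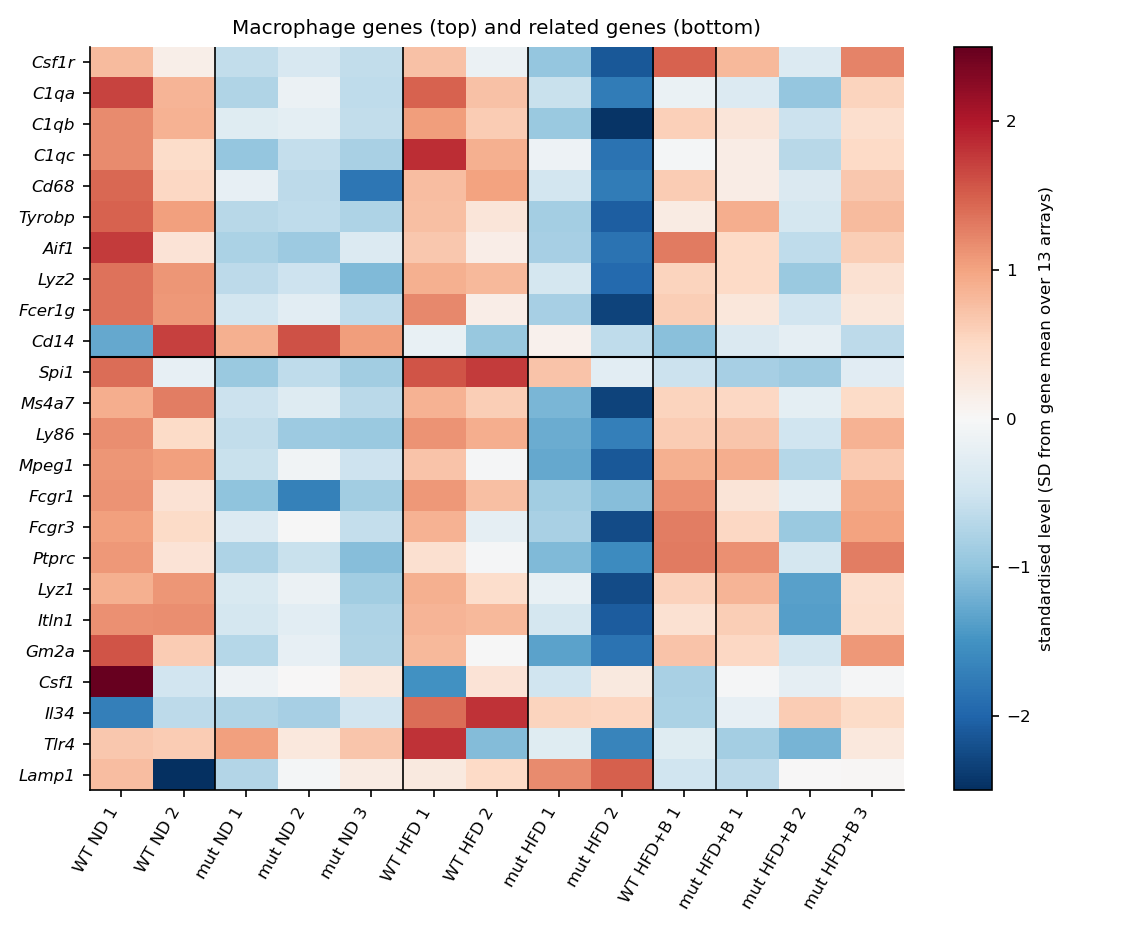
Levels on 13 arrays (columns, grouped by genotype and diet) of the 10 genes (top rows) and related genes (bottom rows), each scaled to mean 0 and SD 1, red for high and blue for low. The first 9 rows share blue at mutant HFD array 2 and red at most wild-type ND and HFD arrays, and Cd14, Csf1, Il34, Tlr4 and Lamp1 have other patterns.

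Other genes of the macrophage lineage were lower in part. Of 31 measured, 10 fell over the 9 arrays and 0 rose, with a median of -0.30, and 2 fell over all 13. Of all genes 2.39% were called lower over the 9 arrays and 0.597% over all 13. Spi1, which encodes PU.1, fell by 0.75 ± 0.17 (adjusted p = 0.0359), Ly86, which pairs with the receptor Cd180, by 1.05 ± 0.12 and Ncf4, a subunit of the phagocyte oxidase, by 0.60 ± 0.12. The surface markers used to sort gut macrophages did not pass: Adgre1, known as F4/80, differed by -0.30 ± 0.14 (adjusted p = 0.288) and Cx3cr1 by -0.073 ± 0.10 (adjusted p = 0.786). Cebpa, a myeloid factor that epithelium also makes, differed by 0.37 ± 0.093 (adjusted p = 0.0522).

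Some markers of other leukocytes were also lower in mutants over the 9 arrays, where 2.39% of all genes were called lower. Of 15 genes common to leukocytes 9 fell over the 9 arrays and 0 rose, with a median of -0.77, among them Ptprc, known as CD45 (-0.95 ± 0.12), and Cd53 (-1.09 ± 0.12). Their mean level was 7.24 to 7.83 on the wild-type and 6.56 to 6.93 on the mutant ND and HFD arrays. Of 16 T and natural killer cell markers 5 fell, led by Cd3g (-0.95 ± 0.16), and the list mean was 6.21 to 6.74 in wild type and 5.93 to 6.19 in mutants. Of 12 dendritic cell markers 4 fell, including Bst2 (-0.78 ± 0.095) and Batf3 (-0.58 ± 0.12), and of 13 B and plasma cell markers 1 fell, Cd79b (-0.89 ± 0.20). The B and plasma cell mean on mutant HFD array 1 (6.653) was above both wild-type HFD arrays (6.647 and 6.588). With butyrate, against 1 wild-type array, the median difference was 0.17 for the T and natural killer cell list. It was 0.056 for the genes common to leukocytes and -0.24 for the 10 macrophage genes. The part of these other leukocytes in the macrophage result was not tested.

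Neutrophil markers were dim and did not pass. Their list mean was 4.17 to 4.42 on the 4 wild-type and 4.15 to 4.75 on the 5 mutant arrays without butyrate, and 0 of 12 were called. Of 12 epithelial markers 0 fell and 1 rose, Krt18 (0.56 ± 0.11), and of 12 fibroblast and smooth muscle markers 1 fell, Col3a1 (-0.70 ± 0.12). Of all genes 2.39% were called lower and 2.24% higher. Endothelial (10), red cell (4) and pancreas (21) lists had 0 calls, and of 4 fat cell markers 1 rose. The pancreas list did differ within diets, with median differences of 1.84 on ND, -3.57 on HFD and -3.07 with butyrate. Its mean was 10.2 and 6.61 on the mutant HFD arrays against 10.8 and 12.4 on the wild-type ones. With the pancreas mean as a covariate the count of macrophage genes called over the 9 arrays was again 9.

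**Figure D5:**
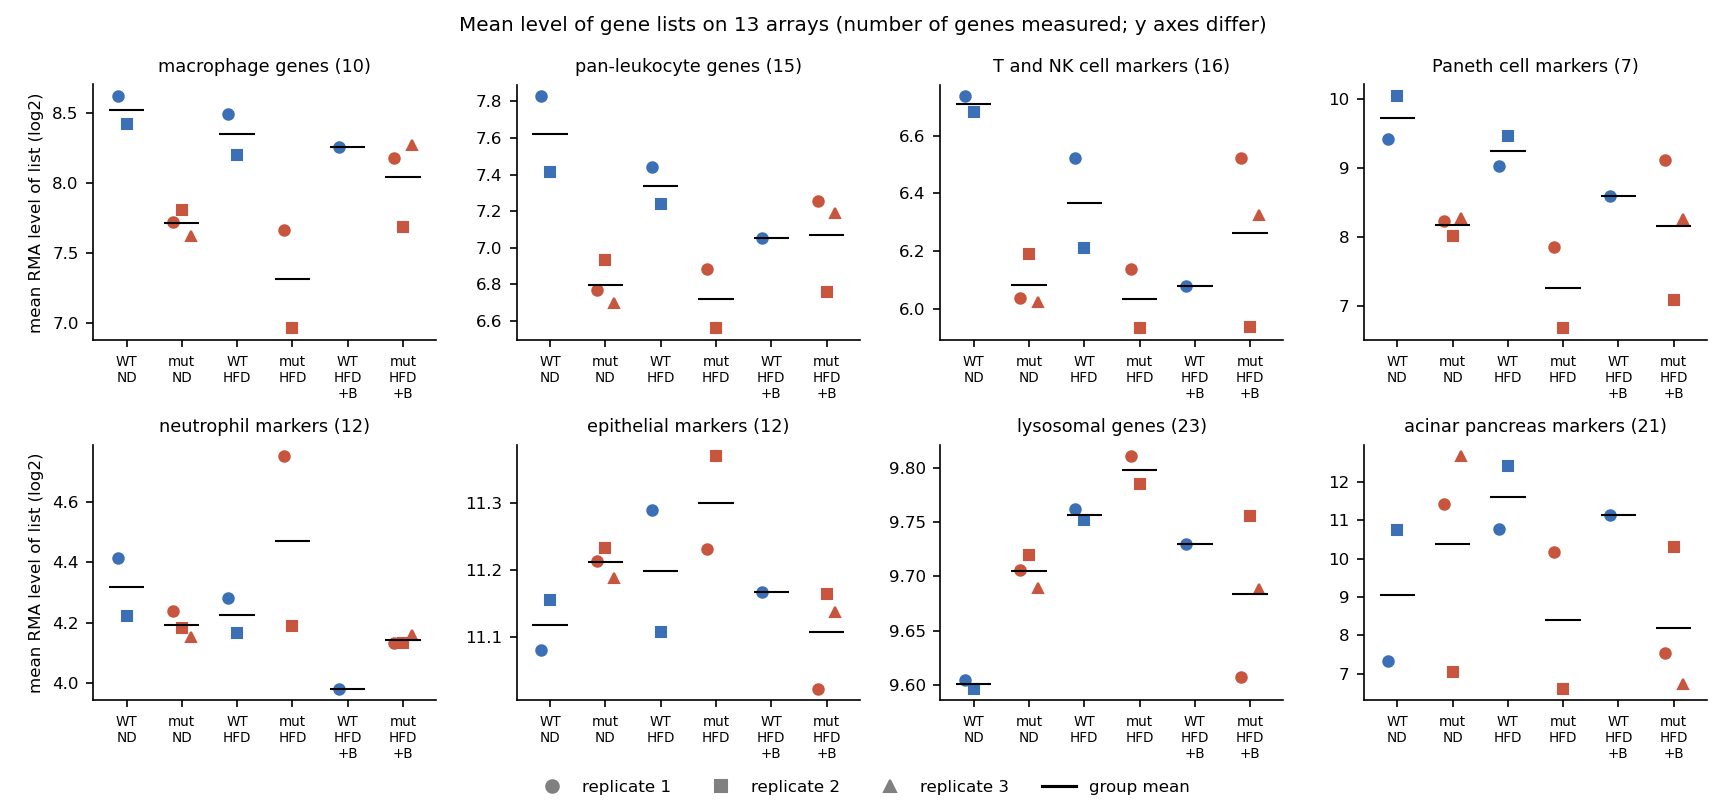
Mean RMA level (log2, vertical axis, a separate scale in each panel) of 8 gene lists on each array by genotype and diet, with symbols for arrays 1, 2 and 3 and lines for group means. Macrophage, leukocyte and Paneth cell means are lower on mutant than on wild-type ND and HFD arrays. The pancreas mean ranges from 6.61 to 12.7. Its genotypes overlap on ND, while on HFD and with butyrate the mutant arrays lie below the wild-type ones.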

How the data were processed

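RNA of the duodenum (200 ng per the labels' protocols) was labelled with biotin and hybridised to 13 arrays. The deposited values are log2 expression levels. They come from Affymetrix Expression Console 1.1 with RMA (background correction, quantile normalization, summary by probe set), per the submitters' processing notes. The labelling kit in the labels is for whole-transcript arrays and the probe set names are of a 3' array, so the chemistry is not certain. The authors' genome build is not given here, and coordinates are from the RefSeq tables of GRCm38.p6.

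Groups follow the genotype and diet labels. The design text speaks of mice, and the p-values reflect only the spread among these samples. No pair of arrays shared over 408 equal values (to 3 decimals) among 22690 probe sets. There were 64 control probe sets, 20380 with a single symbol in the platform annotation, 691 with several and 1555 with none. A gene with several probe sets, as 4956 of 12393 genes had, was read from the brightest. Csf1r and C1qb were the 2 such genes among the 10.

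Tests were two-sided and used R 4.3.3 and limma 3.58.1 (lmFit, and eBayes with an intensity trend). Every adjusted p comes from limma with Benjamini-Hochberg adjustment over all 12393 genes, called at 0.05. The genotype fits had diet as a term. Other comparisons used 6 group means over 13 arrays, with 1 spread for all groups, the single wild-type butyrate array included. The procedure was tested on simulated data.

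The 10 genes, the gene lists and the tests were chosen with earlier results of these data known. All 10 were named, with listed partner genes whatever their values, up to 4 genes of each list with the smallest p over 13 arrays, and the 5 genes most alike in profile, clone codes left out. Alternatives were quantile normalization, averaging the probe sets of a gene, a filter at the 30th percentile of mean level, no intensity trend, array weights, equal weight for each diet, the pancreas mean as a covariate, only the arrays compared, a block for the replicate number, and leaving out each array. Deviations of same-numbered arrays correlated at -0.24 and -0.33 on ND and 0.012 on HFD, so the numbers were not taken to pair the samples.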

Additional observations from a re-analysis of the deposited data

How the results depend on the processing

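Over the 9 arrays without butyrate, C1qa, C1qb, C1qc, Tyrobp, Aif1, Lyz2 and Fcer1g were called lower in all 16 alternatives run, and the count of the 10 genes called was 9 in the 7 alternatives that kept all arrays and 7 to 9 with 1 array left out. The fit of 13 arrays was less stable. Its count of 4 was 0 with each diet weighted equally and 0 to 8 with 1 array left out, and its 127 genes in all became 58 without an intensity trend, 5 with equal diets, 241 with the pancreas covariate and 2 to 329 with 1 array left out. With the replicate number as a block, where same-numbered arrays did not deviate together, 1 of the 10 genes and 7 of all genes passed over 13 arrays, and 9 of the 10 and 244 of all genes over the 9 arrays. Those 9 arrays gave 574 genes in all, and 265 to 582 with 1 array left out.

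With the compared arrays alone the count was 3 lower on ND (Tyrobp, Lyz2 and Fcer1g), 1 lower for HFD against ND in mutants (Cd14) and 1 higher for butyrate in mutants (Csf1r). With 1 array left out the counts were 0 to 1 higher on ND, 0 to 2 lower on HFD, 0 to 1 lower for HFD against ND in wild type, 0 to 2 lower for it in mutants, and 0 to 6 higher for butyrate in mutants, where 1317 to 3041 of all genes passed against 2685. C1qb alone passed for HFD against ND in mutants (count 1) without dim genes, with the mean of probe sets and with array weights.

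Some small differences changed sign. Over the 9 arrays, leaving out 1 array gave -0.020 to 0.47 for Cd14, -0.11 to 0.060 for Csf1, -0.15 to 0.0055 for Il34, -0.22 to 0.27 for Fcer1a and -0.14 to 0.0059 for Tlr4, and Lamp2 was -0.054 with the mean of probe sets. Cd14 ranged from -0.21 to 0.94 on ND, from -0.026 to 0.27 on HFD and from -0.20 to 0.082 for butyrate in mutants. For the genotypes with butyrate C1qa was 0.044 after quantile normalization and ranged from -0.24 to 0.13, C1qc from -0.092 to 0.19 and Tyrobp from -0.019 to 0.36. The causes were not tested. Groups of 1 to 3 arrays limit all of these values.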
